A study of Mus musculus with 8 samples.

Results

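The transcripts described here come from 9 genes best known from lymphocytes, read in bone marrow-derived macrophages: Cd4, Cd8a, Cd28, Lag3, Lck, Il7r, Blnk, Cd79b and Ighm. They are 9 of the 34432 rows of the deposited table, taken by symbol, and they were picked with the difference between the genotypes in these same libraries known. Their values are therefore given as a description, with no test. The double knockout (DKO) macrophages carried Cdk8 flox/flox, Vav-iCre and Cdk19null, which take away both kinases of the Mediator kinase module, and the control macrophages carried VAV-cre. The Vav promoter drives Cre in blood-forming cells, and Cre is common to both genotypes. Each genotype had 4 libraries of polyadenylated RNA, from untreated cells on day 7 of differentiation. The labels do not say whether the 4 libraries of a genotype came from separate animals or cultures, so the p-values below rest on a spread between libraries that could be technical alone.

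In a T cell, CD4 and CD8 are coreceptors that bind MHC molecules beside the T cell receptor and bring the kinase LCK, held on their tails, to the CD3 chains. CD28 gives the costimulatory signal when it binds CD80 or CD86, and LAG3 is an inhibitory receptor, related to CD4, that binds MHC class II. IL7R is the alpha chain of the receptor for interleukin 7 and, with another partner, for the cytokine TSLP. In a B cell, the immunoglobulin mu chain encoded by Ighm is held at the surface by CD79A and CD79B, which signal through the kinase SYK to the adaptor BLNK, and BLNK in turn gathers BTK and the phospholipase PLCG2. Several of these genes are not strictly lymphoid: BLNK also acts as an adaptor in macrophages, and human monocytes carry CD4.

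Depth was 17856715 to 21353207 reads per library. Values are reads divided by a size factor per library, called normalized read counts below, and the size factors lay between 0.9011 and 1.037. The label of the genotype was checked on its targets: Cdk19 had 342.0 to 396.1 normalized reads in the DKO libraries, against 1295.5 to 1681.8 in the VAV-cre libraries. Cdk8 had 429.1, 308.6, 357.1 and 294.3 normalized reads in DKO libraries 1 to 4, against 408.4 to 465.8 in VAV-cre libraries, and the groups overlapped. The Cdk8 total counts the whole gene, including exons outside a floxed part, so it does not measure the deletion. DKO libraries 1 and 2, and 3 and 4, resembled each other more than libraries of different pairs did. The chi-square per gene was 8.19 to 9.3 within those pairs and 19.6 to 26.8 across them, against 9.42 to 38.7 among VAV-cre libraries.

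The cell type in the labels was checked against markers. All 13 macrophage markers were tested and were abundant in both genotypes. Lyz2, the lysozyme of myeloid cells, had 73500 normalized reads per kilobase of exon in DKO and 122000 in VAV-cre libraries, and Mertk, a receptor for apoptotic cells and the lowest of the list, had 466 in DKO and 221 in VAV-cre. The summed level of the 13 was 323948 to 348553 normalized reads in DKO and 377345 to 404340 in VAV-cre libraries. Lyz2 alone had a mean of 96662 in DKO and 160549 in VAV-cre. At a limma adjusted p under 0.05, 7 of the 13 were higher and 6 lower in DKO, with a median log2 difference of 0.32. Of all genes tested, 46.6% passed.

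The defining chains of the T cell receptor were absent or nearly so. Cd3e, Cd3d, Cd3g, Trac and Zap70 had 0 reads in all 8 libraries, where a count of 0 allows up to 3 reads per library. Of 28 T cell markers other than the 9 genes, 13 were at 0 everywhere and 14 had reads but too few to be tested. Those 27 genes summed to 14 to 40 reads in a DKO library and 1 to 53 in a VAV-cre library. Of 31 B cell markers, 13 were at 0 everywhere and 12 had reads but were under the filter. These 25 genes summed to 12 to 38 reads per DKO library and 3 to 36 per VAV-cre library. Such sums take only genes under the filter, so they are low by choice. All 28 T cell markers summed to 41.2 to 48.7 normalized reads in DKO and 24.1 to 62.9 in VAV-cre libraries. All 31 B cell markers summed to 15999 to 18823 in DKO and 17679 to 19316 in VAV-cre libraries. In bulk RNA, fewer cells of a type and less RNA per cell cannot be told apart.

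Promoter letters are shown for 3 of the members. The table, from RefSeq on build GRCm38.p6, gave a window of 250 bases before to 50 after a start for 4 of the 9 genes: Il7r, Blnk, Cd8a and Lck. Il7r and Blnk were the 2 most abundant members per kilobase of exon. Cd8a was low, at 8.21 normalized reads per kilobase in DKO and 8.33 in VAV-cre. Lck was the lowest, at 2.96 in DKO and 3.02 in VAV-cre, and its letters are not shown. Il7r is at chr15:9529827-9530126 on the minus strand, Blnk at chr19:40994172-40994471 on the minus strand and Cd8a at chr6:71373177-71373476 on the plus strand. Capitals mark matches, on either strand, to 4 short motifs: GAGGAA (the PU.1 box), GGAAGT (an ETS core), TGTGGT (Runx) and TGANTCA (AP-1). GAGGAA and GGAAGT share letters and can overlap, and GGAAGT was added after the other motifs had been searched.
Il7r: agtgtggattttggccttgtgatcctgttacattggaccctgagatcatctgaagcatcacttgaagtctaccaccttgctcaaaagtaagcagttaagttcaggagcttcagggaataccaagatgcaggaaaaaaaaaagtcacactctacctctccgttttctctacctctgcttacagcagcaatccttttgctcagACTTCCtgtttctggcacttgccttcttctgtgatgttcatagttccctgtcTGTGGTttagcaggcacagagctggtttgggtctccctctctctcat
Blnk: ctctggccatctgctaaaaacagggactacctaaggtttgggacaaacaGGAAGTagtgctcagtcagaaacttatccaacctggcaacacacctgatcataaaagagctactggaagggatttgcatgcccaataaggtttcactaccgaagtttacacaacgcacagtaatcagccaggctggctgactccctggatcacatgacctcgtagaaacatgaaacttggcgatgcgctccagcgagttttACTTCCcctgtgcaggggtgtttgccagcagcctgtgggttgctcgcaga
Cd8a: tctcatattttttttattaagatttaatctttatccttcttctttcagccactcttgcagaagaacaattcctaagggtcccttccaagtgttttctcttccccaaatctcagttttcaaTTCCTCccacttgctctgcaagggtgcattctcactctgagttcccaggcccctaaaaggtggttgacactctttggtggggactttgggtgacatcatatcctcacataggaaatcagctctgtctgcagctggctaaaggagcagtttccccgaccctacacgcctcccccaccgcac
The Il7r window held GGAAGT on the opposite strand at -49 and TGTGGT at 4, counted from the RefSeq start. The Blnk window held GGAAGT at -201 and, on the opposite strand, at 1. The Cd8a window held GAGGAA on the opposite strand at -130. Lck had windows at more than 1 start. That at chr4:129573592-129573891 held GAGGAA on the opposite strand at -174, GGAAGT at -9 and TGTGGT at -58. That at chr4:129558323-129558622 held GGAAGT at -113. Across 32851 promoter windows of the same length, GAGGAA occurred in 28.3%, GGAAGT in 23.8%, TGTGGT in 16.8% and TGANTCA in 7.81%. Such matches are common and describe letters only. The Il7r and Blnk windows lie wholly inside the gene bodies that GENCODE M21 gives, which begin upstream of the RefSeq start used.

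Of the 9 genes, 5 were higher in every DKO library than in every VAV-cre library, 1 was lower in every DKO library and 3 overlapped. Groups that do not overlap were frequent in these data: 42.9% of the 11675 genes tested had them, and the genes were chosen on this contrast, so nothing is read from 6 of 9. The median log2 difference over the 9 was 0.61, against 0.01 over all genes tested. The 9 passed the filter on low values, which asks for at least 10 normalized reads in at least 4 libraries, but Lck did so in just 4 libraries and Lag3 in 7.

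**Figure D1:**
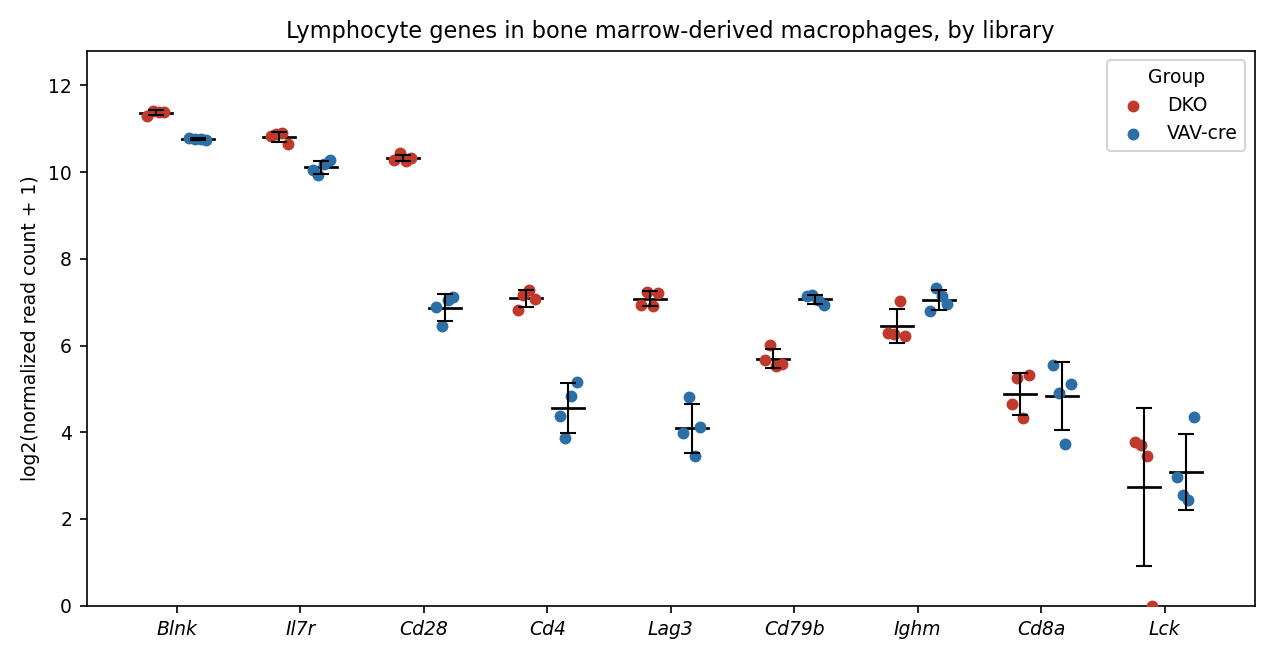
Level of each of the 9 genes in each library, as log2(normalized read count + 1), DKO in red left of VAV-cre in blue, with a bar for the mean and whiskers for the SD (n = 4). Cd28, Cd4, Lag3, Il7r and Blnk sit higher in all DKO libraries, Cd79b sits lower, and Ighm, Cd8a and Lck overlap.

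Cd28, the costimulatory receptor, showed the widest gap. It lies at chr1:60716800-60773359 on the plus strand (coordinates of genes are those of GENCODE M21 on mm10). It had 1249.5, 1385.1, 1223.4 and 1272.7 normalized reads in DKO libraries 1 to 4, against 117.0, 86.0, 132.1 and 137.9 in VAV-cre libraries 1 to 4. All 4 DKO libraries were high and close together, and the means were 1282.7 ± 71.2 in DKO and 118.2 ± 23.2 in VAV-cre (SD, n = 4 each), a 10.8-fold difference and 3.45 (SE 0.16) on the log2 scale. Its relatives on the same chromosome, the costimulatory Icos and the inhibitory Ctla4, did not share that level. Ctla4, which starts 113641 bases from Cd28, had 1.94 in DKO library 1 and 0 in the other 7 libraries, and Icos, 204568 bases away, had 2.91 and 4.02 in DKO libraries 1 and 2 and 0 elsewhere. Ctla4 and Icos were chosen after their values were seen.

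Cd4 and Lag3, related receptors for MHC class II, lie next to each other on chromosome 6 and were both higher in DKO. Cd4 (chr6:124864692-124888221, minus strand) had 112.6, 143.7, 154.0 and 133.5 normalized reads in DKO libraries, against 19.7, 13.5, 27.7 and 34.7 in VAV-cre libraries. The lowest DKO library stood well above the highest VAV-cre library. The means were 136.0 ± 17.7 in DKO and 23.9 ± 9.26 in VAV-cre, 5.69-fold apart, with a log2 difference of 2.53 (SE 0.30). Lag3 (chr6:124904361-124911705, minus strand) had 121.4, 149.8, 120.0 and 148.1 in DKO libraries, against 14.7, 27.1, 9.99 and 16.4 in VAV-cre libraries. Again no library crossed over, and the means of 134.8 ± 16.3 in DKO and 17 ± 7.21 in VAV-cre were 7.91-fold apart (log2 difference 2.99, SE 0.29).

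The 16140 bases between Cd4 and Lag3 hold no other row of the table, so their neighbours were read on both sides. Of 15 other genes within 100 kb of either, 12 were tested. With limma and Benjamini-Hochberg adjustment over the whole table, 4 rose and 1 fell in DKO. Over all genes 46.6% passed that test, 22.9% as higher and 23.8% as lower. Gpr162, an orphan G protein-coupled receptor 709 bases from Cd4, rose most of the 4: it had 309.7, 271.4, 337.1 and 290.4 normalized reads in DKO, against 45.2, 45.4, 32.2 and 82.9 in VAV-cre. Its means were 302.1 ± 28.1 in DKO and 51.4 ± 21.9 in VAV-cre, 5.87-fold apart (log2 difference 2.61, SE 0.24, limma adjusted p = 4.41e-06). On the other side Ptms, the parathymosin gene, 1976 bases from Lag3, rose to 10293 ± 961.6 in DKO, against 5028 ± 703.6 in VAV-cre (log2 difference 1.04, limma adjusted p = 7.86e-06). Spsb2 and Mlf2 rose by 0.76 and 0.51 on the log2 scale (limma adjusted p = 5.39e-05 and 5.63e-05), and were chosen after their values were seen. Between Spsb2 and Gpr162, Cdca3, a gene of the dividing cell, fell to 126.5 ± 28.1 in DKO, against 1018 ± 40.1 in VAV-cre (limma adjusted p = 1.8e-08), and P3h3 did not pass (log2 difference 0.26, limma adjusted p = 0.14, and 0.0295 with quantile scaling), and was chosen after its values were seen. The stretch thus held genes higher, lower and not passing side by side.

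**Figure D2:**
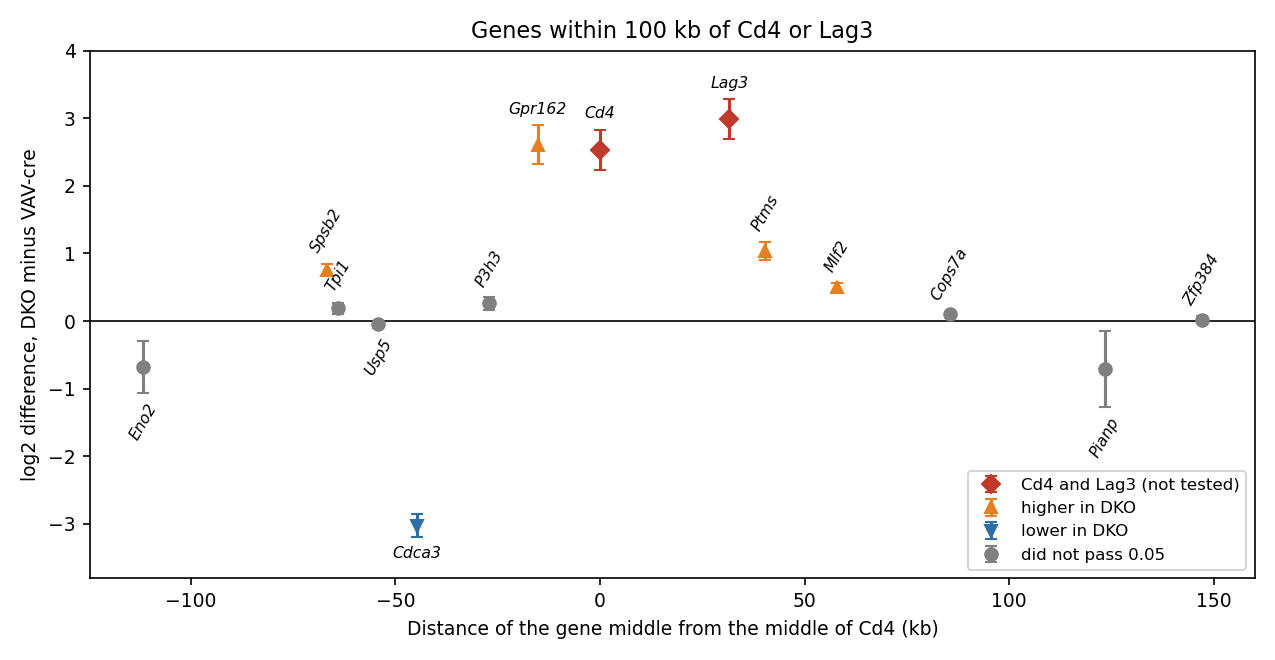
Log2 difference, DKO minus VAV-cre, of genes within 100 kb of Cd4 or Lag3 by the distance of the gene middle from the middle of Cd4 in kb, with whiskers for the SE from the SDs of the groups. Gpr162, Cd4, Lag3 and Ptms form a run of high values, at 2.61, 2.53, 2.99 and 1.04, while Cdca3 lies at -3.03.

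Cd8a, the other coreceptor, and Lck, the kinase of both, showed no gap between the genotypes. Cd8a (chr6:71373427-71379173, plus strand) had 24.3, 37.2, 19.0 and 39.0 normalized reads in DKO libraries, against 46.2, 29.0, 12.2 and 33.8 in VAV-cre libraries. The libraries of both genotypes were interleaved, with means of 29.9 ± 9.76 in DKO and 30.3 ± 14.1 in VAV-cre and a log2 difference of 0.06 (SE 0.46). Cd8b1, the chain that pairs with CD8A on most T cells, had 0, 4.02, 4.0 and 4.87 in DKO libraries and 0 in each VAV-cre library. Lck (chr4:129548344-129573641, minus strand) had 12.6, 12.1, 10 and 0 in DKO libraries, against 6.88, 4.83, 4.44 and 19.3 in VAV-cre libraries. It rested on 0 to 20 reads per library, with DKO 4 the lowest and VAV-cre 4 the highest. Its means were 8.67 ± 5.89 in DKO and 8.86 ± 7.03 in VAV-cre, and with a log2 difference of -0.34 (SE 1.01) no difference was detectable at this depth. Cd247 and Lat, further parts of the T cell receptor pathway, were read mainly in single libraries: Cd247, the zeta chain, had 26.5 in VAV-cre 1 and 1.01 in DKO 2, and Lat, the membrane adaptor, had 22.4 in DKO 4 and 10.8 in VAV-cre 1. Cd5 was the 1 T cell marker tested, at 22.7 ± 10.9 normalized reads in DKO, and it did not pass (log2 difference 0.30, unadjusted p = 0.544, limma adjusted p = 0.64). It was chosen after its values were seen.

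Il7r was abundant in both genotypes and higher in DKO. It lies at chr15:9505788-9530176 on the minus strand and had 1813.5, 1880.6, 1915.6 and 1598.2 normalized reads in DKO libraries, against 1054.5, 981.3, 1168.5 and 1238.2 in VAV-cre libraries. The groups did not overlap, and the means of 1802.0 ± 142.3 in DKO and 1110.6 ± 114.8 in VAV-cre were 1.62-fold apart (log2 difference 0.70, SE 0.10). The chains that complete its receptors moved in opposite directions. Il2rg, the common gamma chain that IL7R needs to signal for interleukin 7, fell to 1931 ± 67.1 in DKO, against 2717 ± 60.7 in VAV-cre (log2 difference -0.49, SE 0.06, limma adjusted p = 2.24e-05). Crlf2, the partner for TSLP, rose to 2775 in DKO, against 2107 in VAV-cre (log2 difference 0.40, limma adjusted p = 0.00233). Of the kinases bound to these chains, Jak1 and Jak3 did not pass (limma adjusted p = 0.901 and 0.366). Crlf2, Jak1 and Jak3 were chosen after their values were seen, for their place in the receptor.

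Blnk, the adaptor below the B cell receptor, was the most abundant of the 9 per kilobase. Blnk (chr19:40928927-40994535, minus strand) had 2506.7, 2717.9, 2684.9 and 2681.8 normalized reads in DKO libraries, against 1770.0, 1746.0, 1741.2 and 1701.1 in VAV-cre libraries. Values in each genotype were tight, at 2647.8 ± 95.5 in DKO and 1739.5 ± 28.6 in VAV-cre, and 1.52-fold apart (log2 difference 0.61, SE 0.03), with DKO 1 the lowest of its group. Upstream of BLNK, Syk rose to 4152 in DKO, against 3326 in VAV-cre (log2 difference 0.32, limma adjusted p = 0.00102). Downstream, Plcg2 fell to 2142 ± 91.2 in DKO, against 3389 ± 437.5 in VAV-cre (log2 difference -0.65, limma adjusted p = 9.98e-05), and Btk did not pass (limma adjusted p = 0.162). Syk and Btk were chosen after their values were seen.

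Cd79b, the signalling chain of the B cell receptor, was the 1 member lower in every DKO library. It lies at chr11:106311341-106314762 on the minus strand and had 49.5, 63.3, 45.0 and 46.8 normalized reads in DKO libraries, against 140.5, 142.1, 130.9 and 120.5 in VAV-cre libraries. The DKO mean of 51.2 ± 8.32 was 38.3% of the VAV-cre mean of 133.5 ± 9.97 (log2 difference -1.38, SE 0.12). Its obligate partner Cd79a was almost unread, at 5.0 in DKO 3, 2.22 in VAV-cre 3 and 0 in the other 6 libraries. Ighm, the mu heavy chain constant gene at chr12:113418558-113422730 on the minus strand, had 76.7, 76.4, 130.0 and 74.1 in DKO libraries, against 110.1, 158.5, 140.9 and 123.4 in VAV-cre libraries. DKO 3 stood alone above the other 3 DKO libraries and made the groups overlap, and without it they did not. The means were 89.3 ± 27.2 in DKO and 133.2 ± 21.1 in VAV-cre (log2 difference -0.60, SE 0.22). The 25 B cell genes under the filter summed to 12, 15, 38 and 13 reads in DKO libraries 1 to 4, against 36, 12, 16 and 3 in VAV-cre libraries 1 to 4. DKO 3 was thus the highest DKO library for that sum. The 6 B cell markers that passed the filter were mixed among DKO libraries. Cd22 and Ralgps2 were lowest in DKO 3, at 254.1 and 168.1 normalized reads. Bank1 was lowest in DKO 1, and Bach2, Cd37 and Cd72 were lowest in DKO 4. The part of these B cell genes in the Ighm level of DKO 3 was not tested. Ralgps2 and Cd72 were chosen after their values were seen. Near-identical immunoglobulin sequences could share reads, so the Ighm value is uncertain. The other constant genes were low: Ighd had 0.983 in VAV-cre 1 and 0 elsewhere, and Igkc had 0.974 to 10 in DKO and 0 to 18.7 in VAV-cre libraries.

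The other B cell genes divided in the same way into genes that were read and genes that were not. Of 31, 6 were tested, 3 rose and 2 fell, where 46.6% of all genes tested passed in either direction. Cd22, an inhibitory receptor for sialic acid, had 329.1, 433.2, 254.1 and 270.9 normalized reads in DKO, against 36.4, 35.8, 20 and 74.3 in VAV-cre (log2 difference 3.04, SE 0.33, limma adjusted p = 2.06e-05). Bank1, a scaffold of B cell receptor signalling, fell to 57.1 ± 12.5 in DKO, against 226.5 ± 11.9 in VAV-cre (log2 difference -2.0, SE 0.18, limma adjusted p = 3.99e-06). Bach2, a transcriptional repressor, rose to 60 ± 4.34 in DKO, against 19.3 ± 5.51 in VAV-cre (limma adjusted p = 0.000502), and the tetraspanin gene Cd37 rose to 4299 ± 221.8 in DKO, against 3375 ± 202.6 in VAV-cre (limma adjusted p = 0.000846). Defining genes of the lineage stayed near 0. Of its transcription factor genes, Pax5 had 1.11 in VAV-cre 3 and 0 in the other 7 libraries. Ebf1 had 0 to 5.0 in DKO and 0.967 to 4.91 in VAV-cre. Ms4a1, the CD20 gene, had 0 to 12.0 in DKO and 0 to 3.87 in VAV-cre.

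**Figure D3:**
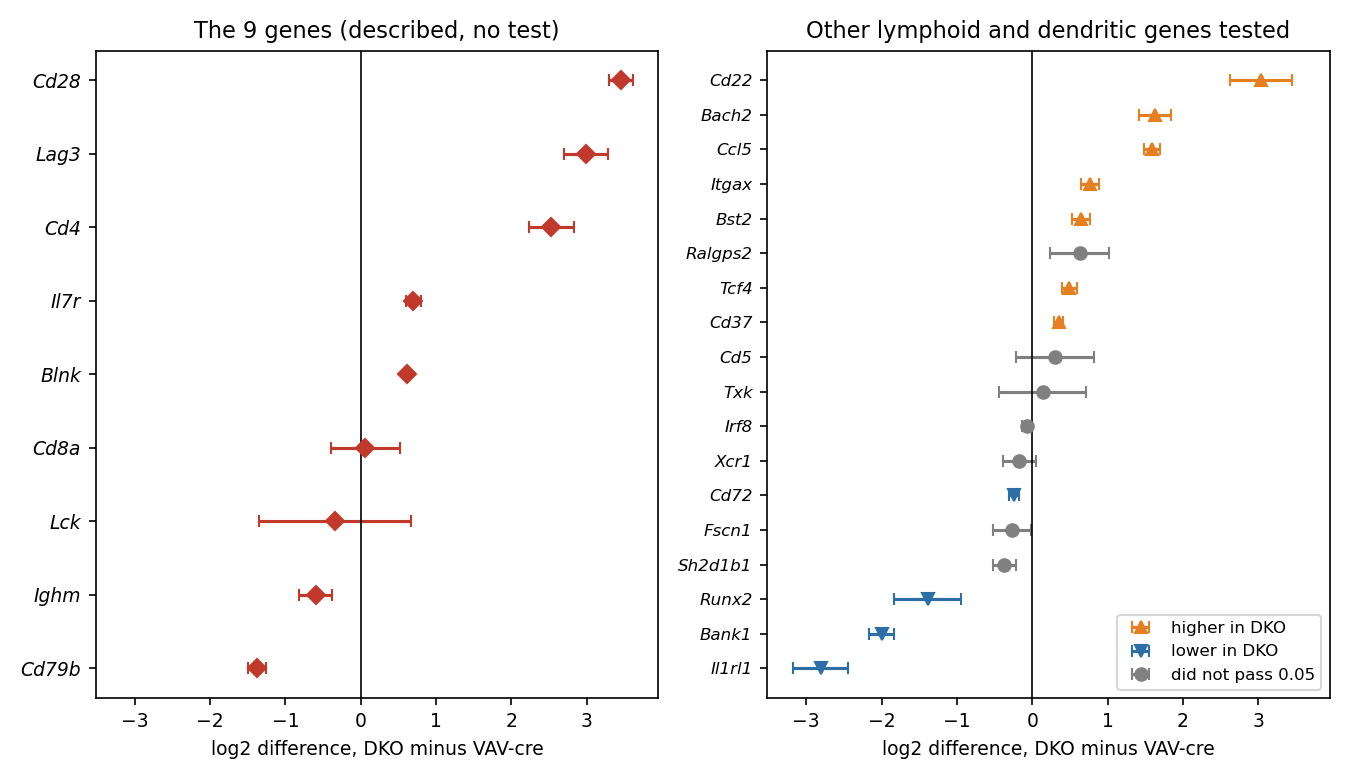
Left, log2 difference DKO minus VAV-cre of the 9 genes, described without a test; right, that of the other lymphoid and dendritic markers that passed the filter, by limma call, with whiskers for the SE from the SDs of the groups. Cd28 at 3.45 and Cd22 at 3.04 are at the top, and Cd79b at -1.38, Bank1 at -2.0 and Il1rl1 at -2.81 at the bottom.

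Markers of natural killer, innate lymphoid and dendritic cells were read for the same check. Of 18 natural killer and innate lymphoid genes, 4 were tested, 1 rose and 1 fell, where 46.6% of all genes tested passed in either direction. The chemokine gene Ccl5 rose to 27366 ± 2566 in DKO, against 9095 ± 999.2 in VAV-cre (limma adjusted p = 5.48e-08), and the interleukin 33 receptor gene Il1rl1 fell to 2.72 ± 1.71 in DKO, against 23.6 ± 5.8 in VAV-cre (limma adjusted p = 0.00076). Il1rl1 passed the filter through its VAV-cre libraries alone, its DKO libraries held 11 reads in all, and it is not tested when a mean of at least 50 is asked. Ncr1, a defining natural killer receptor, was at 0. The 14 genes under the filter summed to 7 to 19 reads per DKO library and 9 to 14 per VAV-cre library, low by choice. All 18 genes, Ccl5 included, summed to 25028 to 30580 normalized reads in DKO and 8080 to 10397 in VAV-cre libraries. Of 20 dendritic cell genes, 7 were tested, 3 rose and 1 fell, beside the same 46.6%. Bst2, Itgax and Tcf4 rose by 0.65, 0.77 and 0.49 on the log2 scale while Runx2 fell by 1.39 (limma adjusted p = 0.00021, 0.000349, 0.000814 and 0.00789). Xcr1, Irf8 and Fscn1 did not pass (limma adjusted p = 0.623, 0.452 and 0.52), and were chosen after their values were seen. Flt3, the receptor that marks dendritic precursors, had 0 to 1.01 in DKO and 2.22 to 9.67 in VAV-cre libraries, and Siglech 0 to 4.0 in DKO and 0 to 3.9 in VAV-cre.

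The proteins that these receptors signal through, and the ligands they meet, are largely macrophage genes too. Of 30 receptor-proximal signalling genes, 27 were tested, 6 rose, 9 fell and 12 did not pass, with a median log2 difference of -0.08. The kinase gene Tec rose to 1903 ± 140.4 in DKO, against 1070 ± 60 in VAV-cre, and Cblb, a ubiquitin ligase that restrains CD28 signalling, rose to 841.0 ± 59.6 in DKO, against 511.6 ± 53.4 in VAV-cre (limma adjusted p = 3e-06 and 9.24e-05). Fgr, a Src family kinase gene, fell to 10.3 ± 2.98 in DKO, against 75.4 ± 13.1 in VAV-cre (limma adjusted p = 1.93e-05). Of 27 ligands and partners, 22 were tested, 10 rose and 5 fell, with a median of 0.31. Beside both lists, 22.9% of all genes tested rose and 23.8% fell. Lgals3, a lectin that binds LAG3 among others, rose to 32985 ± 1299 in DKO, against 11552 ± 1470 in VAV-cre (log2 difference 1.52, limma adjusted p = 6.07e-08). Cd274, the ligand of the inhibitory receptor PD-1, rose to 501.8 ± 37.6 in DKO, against 238.3 ± 19.6 in VAV-cre (limma adjusted p = 6.05e-06), and Icosl fell to 607.3 ± 52.6 in DKO, against 1054.7 ± 39.6 in VAV-cre (limma adjusted p = 9.67e-06). Of the ligands of CD28, Cd86 rose to 280.0 ± 61.7 in DKO, against 193.2 ± 14.1 in VAV-cre (limma adjusted p = 0.0156), and Cd80 did not pass (limma adjusted p = 0.921). H2-Aa, an MHC class II chain that CD4 and LAG3 bind, rose by 1.0 on the log2 scale (limma adjusted p = 0.00327). The other class II chains of the list did not pass: H2-Ab1, its partner chain, had a log2 difference of 0.35 and H2-Eb1 one of 0.46 (limma adjusted p = 0.135 and 0.121). Both passed with quantile scaling (limma adjusted p = 0.0332 and 0.0448). Cd86, Cd80, H2-Aa, H2-Ab1 and H2-Eb1 were chosen after their values were seen.

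Genes around the other members were read in the same way. Of 82 genes within 100 kb of any of the 9, those around Cd4 and Lag3 included, 33 were tested, 9 rose and 8 fell, 36 had no read and the median log2 difference was 0.09. Over all genes tested, 22.9% rose and 23.8% fell. Around Lck 9 of 13 were tested, 3 rose and 3 fell, and around Cd79b 7 of 11 were tested, 1 rose and 3 fell. Around Cd8a 2 of 5 were tested and 1 rose, and around Blnk 2 of 5 were tested and 1 fell. Around Il7r the 1 gene tested did not pass, and around Cd28 and Ighm 0 genes were tested. Hdac1, a histone deacetylase 5631 bases from Lck, fell by 0.43 (limma adjusted p = 0.000165), and Marcksl1, in the same neighbourhood, fell by 0.82 (limma adjusted p = 2.71e-06). Icam2, an adhesion gene 62894 bases from Cd79b, fell by 1.12 (limma adjusted p = 9.43e-05), and Krcc1, 88108 bases from Cd8a, rose by 0.57 (limma adjusted p = 7.11e-05). Zfp518a, 10980 bases from Blnk, fell by 0.31 (limma adjusted p = 0.0341), a call lost when any 1 DKO library or VAV-cre 3 or 4 was left out (adjusted p 0.0546 to 0.0813). It was also lost with the DKO libraries averaged in pairs (0.118), with the replicate block (0.0666), with quantile scaling (0.0957) and with no filter on low values (0.0529). Smarcd2 beside Cd79b, Eif3i beside Lck, Rmnd5a beside Cd8a and Spef2 beside Il7r did not pass (limma adjusted p = 0.262, 0.465, 0.117 and 0.338), though Rmnd5a did without VAV-cre 4 (0.0359). Eif4a-ps4, a pseudogene 11651 bases from Cd28, was high in 1 library of each genotype, at 20.5 in DKO 4 and 124.4 in VAV-cre 4.

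Levels per kilobase of exon put the 9 genes on 1 scale. In DKO the order of mean normalized reads per kilobase was Blnk 442, Il7r 386, Cd28 210, Lag3 63.9, Ighm 47.3, Cd79b 35.7, Cd4 33.7, Cd8a 8.21 and Lck 2.96. The neighbours Lag3 and Ighm, Ighm and Cd79b, and Cd79b and Cd4 overlapped in their libraries. In VAV-cre it was Blnk 290, Il7r 238, Cd79b 93.3, Ighm 70.7, Cd28 19.3, Cd8a 8.33, Lag3 8.08, Cd4 5.93 and Lck 3.02, and the libraries of Cd8a, Lag3, Cd4 and Lck overlapped from one neighbour to the next. Against 17596 genes with a read, Blnk stood at percentile 87 in DKO and 81.7 in VAV-cre. Cd28 stood at percentile 77.1 in DKO and 43.9 in VAV-cre, the widest shift of the 9. Cd79b stood at 50.4 in DKO and 62.6 in VAV-cre, and Lck, the lowest, at 32.2 in DKO and 31.9 in VAV-cre.

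**Figure D4:**
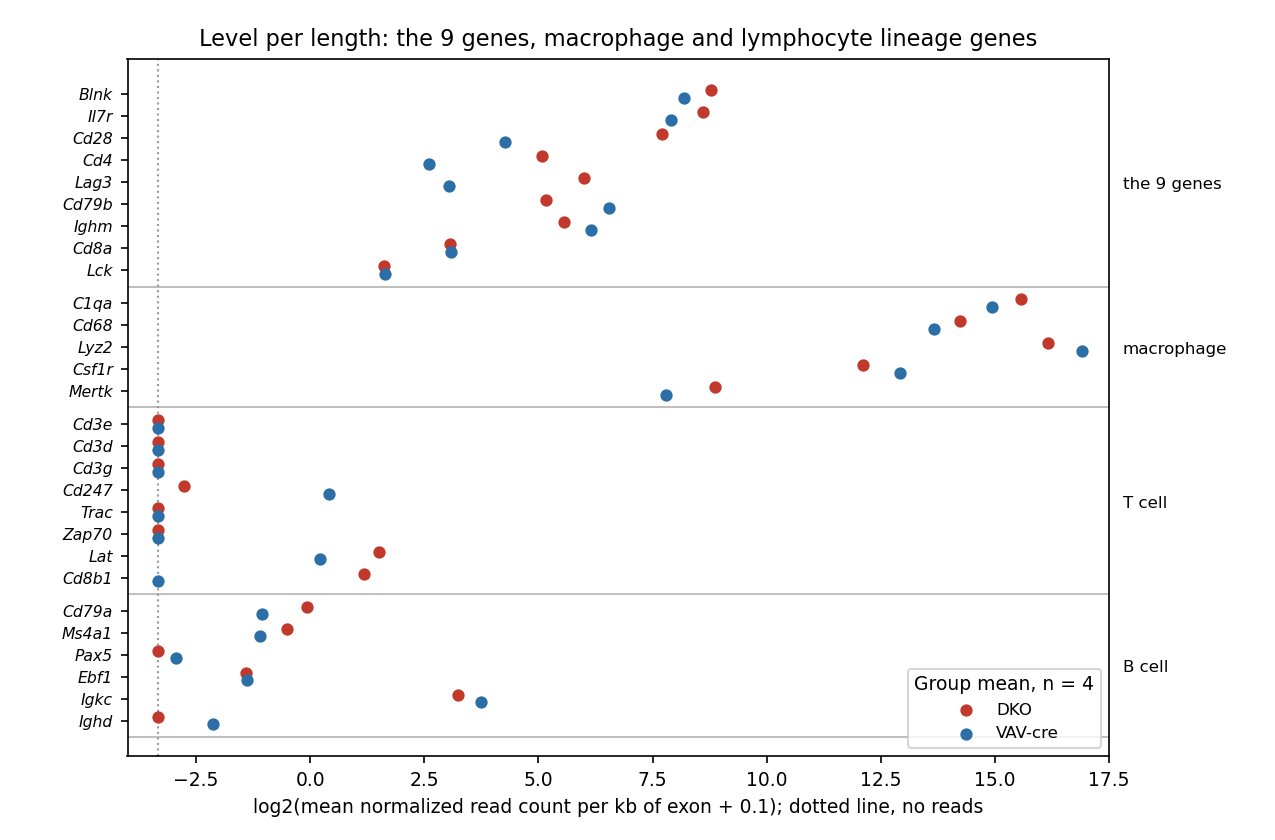
Mean normalized reads per kilobase of exon on a log2 scale with 0.1 added, DKO in red above VAV-cre in blue. Shown are the 9 genes, 5 macrophage markers, T cell lineage genes and the B cell genes Cd79a, Ms4a1, Pax5, Ebf1, Igkc and Ighd. A dotted line marks no reads. B cell markers with higher levels are not drawn, among them Cd72 (3670 in DKO, 4330 in VAV-cre), Cd37 (1220 and 958) and Cd22 (63.8 and 8.25). Blnk, Il7r and, in DKO, Cd28 lie close to the macrophage marker Mertk, and Cd3e, Cd3d, Cd3g, Trac and Zap70 lie on the line.

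The genes whose levels ran most like each member over the 8 libraries were listed by Pearson's r of log2(value + 1), as a description: the libraries fall into 2 genotypes, so any gene with a wide gap scores high. For Cd28 they were Thbs1 and Itgb3, both at r = 0.998, and 544 genes reached 0.95. For Cd4 they were Tlk1 and Tmem65 at 0.995 and 0.994, for Lag3 Inpp5j and Osgin1 at 0.994 and 0.993, and for Il7r Ncapg2 and Fblim1 at 0.989 and 0.988. Blnk ran most like H2aw and Rab20, both at 0.998, and Cd79b like Fut7 and Dglucy, both at 0.995. Ighm had few such genes: 6 reached 0.95, led by Rpl37rt at 0.993 and Tspyl4 at 0.977. Both were highest among the DKO libraries in DKO 3, as Ighm was, and their choice by r with Ighm favours that.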

How the data were processed

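RNA had been selected for polyadenylated transcripts and sequenced as read pairs from Kapa mRNA HyperPrep libraries, per the labels' protocols. The authors deposited 1 signal value per gene and library, made with Salmon 1.4.0 and DESeq2 on mm10, per the submitters' processing notes. The sources used here do not give the annotation release, the use of strand or any filter, so overlapping, antisense and near-identical genes are uncertain. No other row overlapped a member. In each library the deposited signal is reads scaled by a single size factor, and undoing the scaling gave whole reads for 100% of values within a tolerance of 0.01. The intervals that a count of 0 allows (3 reads) cover counting error only.

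Groups are the genotypes that the sample titles name. The 11675 genes with at least 10 in at least 4 libraries entered limma 3.58.1 (R 4.3.3) on the log2(value + 1) scale (trend and robust options, two-sided, Benjamini-Hochberg adjustment, threshold 0.05). Differences on this scale understate those of low genes, and folds are ratios of group means. The SE beside a tested gene is limma's, and that beside a member comes from the SDs. The fit was checked on simulated reads. The members and lists were chosen with earlier results of these data known. Named genes are the members, up to 4 of each list with the smallest adjusted p under 0.05, defining lineage genes, the nearest neighbours with a mean of at least 10, and the 2 most alike by r for members with a mean of at least 50. A lineage gene of that rule is not reported here. Genes outside that rule are said to be chosen after their values were seen. Gene positions and exon lengths come from GENCODE M21. Alternatives were edgeR 4.0.16 and DESeq2 1.42.0 on the recovered reads, TMM and quantile scaling, other pseudocounts and filters, a replicate block, DKO libraries averaged in pairs, limma without its trend and robust options, and leaving out each library.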

Additional observations from a re-analysis of the deposited data

Results flagged for a closer look

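Each group of 4 libraries was screened for a single library far from the other 3, by the gap to the nearest library over the range of the group (Dixon's test at 95%). Of 156 groups, 19 were flagged, 3 of them in the 9 genes. Chance flags about 1 in 20 groups, a rate that does not hold for 9 of the flags, where the other 3 libraries were all at 0. Ighm had 130.0 normalized reads in DKO 3, against 74.1 to 76.7 in the other DKO libraries. Tspyl4, picked for its likeness to Ighm, had 110.0 in DKO 3, so its flag is not a separate observation. Blnk was low in DKO 1, at 2506.7. Lck was high in VAV-cre 4, at 19.3.

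B cell and dendritic genes near 0 were flagged where 1 library held the reads. In DKO 3 these were Cd79a at 5.0, Ms4a1 at 12.0 and Siglech at 4.0 normalized reads. In DKO 2 Flt3 had 1.01. In VAV-cre 3 Cd79a had 2.22 and Pax5 1.11, and in VAV-cre 1 Ighd had 0.983. Whether B cell RNA in DKO 3 had a part in its Ighm level was not tested. Of the T cell genes, Cd247 had 1.01 in DKO 2 and 26.5 in VAV-cre 1, and Lat had 22.4 in DKO 4 and 10.8 in VAV-cre 1.

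The remaining flags were Cd68 in DKO 1 at 25633 normalized reads, Eif4a-ps4 in DKO 4 at 20.5 and in VAV-cre 4 at 124.4, and Icam2 in VAV-cre 3 at 345.1.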

How the results depend on the processing

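The differences of Cd28, Cd4, Lag3, Il7r, Blnk, Cd79b and Ighm kept their direction in each of 16 alternatives with a value for them. Log2 differences ranged over 3.31 to 3.53 for Cd28, 2.30 to 2.73 for Cd4, 2.71 to 3.23 for Lag3, 0.64 to 0.76 for Il7r, 0.59 to 0.63 for Blnk, -1.48 to -1.23 for Cd79b and -0.79 to -0.44 for Ighm. Cd8a (-0.31 to 0.31) and Lck (-0.69 to 0.57) had both signs. Members whose groups do not overlap numbered 6 to 7 when 1 library was left out, 7 being without DKO 3, and 7 with the DKO libraries averaged in pairs.

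Over all genes, 5444 passed. This was 5371 with edgeR, 5678 with DESeq2, 5543 with quantile scaling (3038 higher, 2505 lower), 4132 with DKO libraries averaged in pairs and 4669 to 5333 with 1 library left out. The count of T cell genes was 0 by limma (0 also at an unadjusted p under 0.05), edgeR and DESeq2, and 1 with no filter on low values (Cd8b1, limma adjusted p = 0.0258, log2 difference 1.80). The natural killer count was 1 with a mean of at least 50, which leaves 2 genes tested. The dendritic count was 4, and 6 with no filter on low values (3 higher, 3 lower). There Flt3 and Ccr7 also fell (limma adjusted p = 0.00389 and 0.0376). Summed over libraries, Flt3 had 1 read in DKO and 22 in VAV-cre, and Ccr7 had 12 and 47. Ccr7 was chosen after its values were seen. Of the 5 B cell genes that passed, Cd72 (limma adjusted p = 0.0126) did not pass with DKO libraries averaged in pairs (0.0531), and was chosen after its values were seen.

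Same-numbered libraries did not deviate together (correlations -0.053, 0.032, -0.036 and -0.043). The labels do not say whether the numbers pair libraries, and correlations near 0 cannot exclude it. With the replicate block, 4649 genes passed (2215 higher, 2434 lower), with 5 B cell genes, 2 natural killer, 4 dendritic, 13 signalling, 12 ligand and 14 neighbour genes. Depth limits Lck, Cd8a and the lineage genes near 0.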
